A study of Mus musculus with 15 samples.

Results

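Homeostatic and disease-associated microglial genes were examined across the brain libraries of PLP-α-synuclein mice, a model of multiple system atrophy. The set was a list of 38 genes known for their part in microglia, of 27179 gene IDs in the table. It held 20 genes of resting, homeostatic microglia and 18 genes of disease-associated microglia. All 38 were found by gene ID, and all 38 passed the filter on low counts, beside 17151 genes in all.

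RNA was sequenced from brains of 12-month-old mice in 15 libraries, which the labels describe as bulk tissue of hemispheres. The 7 transgenic (TG) libraries came from homozygous PLP-α-synuclein mice, 4 female and 3 male, in which the PLP promoter, active in oligodendrocytes, drives human α-synuclein. The 8 wild-type (WT) libraries came from non-transgenic C57Bl/6 mice matched for age and sex, 4 male and 4 female. The sample titles give each of the 4 genotype-and-sex groups a number of its own. What that number marks is not stated in the labels, and it cannot be told apart from genotype and sex. The labels do not state that replicates came from separate animals, so the p-values measure only the spread between these libraries, which may be technical. The human transgene was not analysed here.

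Microglia are the resident macrophages of the brain. In the healthy adult they carry a set of surface receptors, among them P2RY12, CX3CR1 and CSF1R, through which they sense nucleotides, a neuronal chemokine and growth factors. In models of neurodegeneration and demyelination, a share of them lowers these genes and raises others, in part through the TREM2-TYROBP receptor complex. The second programme holds lipid carriers, lysosomal proteases and surface proteins such as CLEC7A and ITGAX.

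The libraries differed in which brain region they held, so they were put in 4 classes by 4 marker genes, none of them a microglial member. Hoxa5, a homeobox gene that patterns the hindbrain, lay between 69.3 and 121 CPM (counts scaled to library size) in 4 hindbrain-marker libraries: TG females 1 and 4, WT male 3 and WT female 3. Gabra6, which granule neurons of the cerebellum use as a GABA receptor subunit, reached 701 CPM in TG female 3, the one cerebellum-marker library. Neurod6, of excitatory cortical neurons, lay between 131 and 171 CPM in 3 cortex-marker libraries, TG male 4, WT male 4 and WT female 2. Omp, of olfactory sensory axons, lay between 42.2 and 159 CPM in the other 7, the olfactory-marker libraries: TG female 2, TG males 1 and 3, WT males 1 and 2 and WT females 1 and 4. Total counts ran between 15170772 and 35850998 per library, with a median of 17635366. At these depths 3 reads correspond to between 0.0834 and 0.194 CPM.

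Counts per exon length set the order of levels within the set, as CPM per kilobase of exon, by the median over 15 libraries. Apoe, the main lipid carrier of the brain, made by astrocytes as well as microglia, stood first at 726 CPM per kilobase. Fth1, the ferritin heavy chain made by many cell types, stood next at 327. The lysosomal proteases Ctsd and Ctsb followed at 118 and 87.1, and C1qa, a chain of the complement protein C1q, came after them at 47.1. At the low end lay Clec7a at 0.519, Cst7 at 0.327 and Itgax at 0.196 CPM per kilobase, all 3 defining genes of the disease-associated state. C1qb, the partner chain of C1qa and C1qc in the same protein, lay at 6.11 CPM per kilobase, against 47.1 for C1qa and 23.4 for C1qc. In the GENCODE annotation of GRCm38, 13 of the 38 genes overlap another gene, P2ry12 and P2ry13 both with Med12l on the opposite strand. Whether the counting used strand is not given in the sources used here, so reads of such pairs may have been shared.

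Most homeostatic receptors lay at overlapping levels in the hindbrain-marker, cortex-marker and olfactory-marker libraries. P2ry12 was lower with hindbrain than with cortex markers, and the receptor-like Fcrls was lower with hindbrain than with olfactory markers. Most disease-associated genes were highest with hindbrain markers and lowest with cortex markers. Across the class differences that follow, a call means that the libraries of 2 classes did not overlap, with no p-value. In bulk tissue, the number of microglia, the RNA per microglial cell and reads from other cells that make the same gene cannot be told apart. The median log2 CPM over the 18 disease-associated genes was 5.43 to 5.72 in the hindbrain-marker libraries, 3.37 to 3.73 in the cortex-marker libraries and 3.95 to 4.73 in the olfactory-marker libraries. Over the 20 homeostatic genes it was 4.38 to 4.80, 4.11 to 4.43 and 4.08 to 4.59 in the same order of classes. The ranges of the disease-associated list did not overlap between any pair of these classes, and those of the homeostatic list did.

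**Figure D1:**
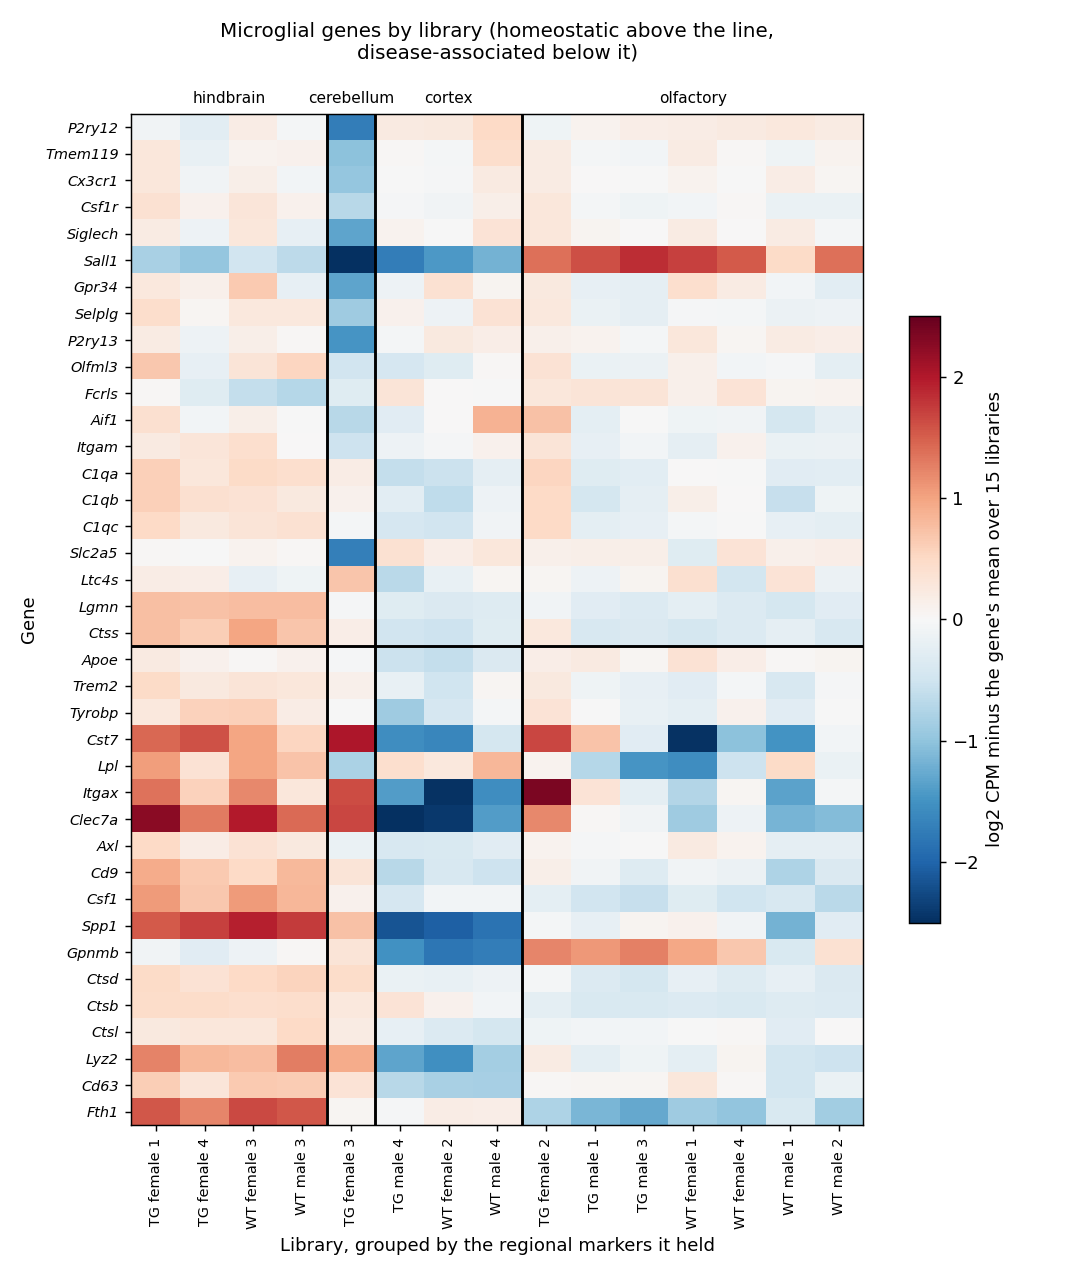
Heat map of the 38 genes (rows) in the 15 libraries (columns, grouped by class), coloured by log2 CPM minus the gene's mean over all 15 libraries. The disease-associated rows are mostly red in the 4 hindbrain-marker libraries and mostly blue in the 3 cortex-marker libraries, while most homeostatic rows are pale except in TG female 3.

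Between hindbrain-marker and olfactory-marker libraries, 10 of 18 disease-associated genes were higher without overlap and 0 were lower, where 24.8% of all genes tested were higher and 25.7% lower. For the homeostatic list these counts were 2 higher and 2 lower of 20. The median log2 difference was 0.75 for the disease-associated and 0.06 for the homeostatic genes, beside 0.00 for all genes tested. Without TG female 2, an olfactory-marker library with high microglial counts, 19 members in place of 12 were higher without overlap. The 7 that joined were Csf1r, Selplg, C1qa, C1qb, C1qc, Trem2 and Tyrobp. With fewer libraries any gene overlaps less readily, and the share of all genes was not computed again for this smaller set.

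Between hindbrain-marker and cortex-marker libraries, 17 of 18 disease-associated genes were higher without overlap, where 29.8% of all genes were higher and 29.3% lower. Only Lpl, a lipoprotein lipase, overlapped. Of 20 homeostatic genes 6 were higher (Sall1, C1qa, C1qb, C1qc, Lgmn and Ctss) and 2 lower (P2ry12 and Slc2a5, a sugar transporter). The median log2 difference was 1.10 for the disease-associated and 0.13 for the homeostatic genes, beside 0.01 for all genes tested.

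Between cortex-marker and olfactory-marker libraries, 2 disease-associated genes were higher and 8 lower without overlap, where 19.9% of all genes were higher and 17.9% lower. The 8 were Apoe, Itgax, Clec7a, Axl, Spp1, Gpnmb, Lyz2 and Cd63, and the 2 were Ctsb and Fth1. Sall1 alone among the homeostatic genes was apart, and it was lower. The median log2 difference was -0.35 for the disease-associated and -0.01 for the homeostatic genes, beside -0.01 for all genes. Without WT male 4, a cortex-marker library, 15 members in place of 9 were lower without overlap. Here too the share of all genes, which also can rise with fewer libraries, was not computed again.

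Markers of some other cells also differed between these classes, while the sums of others overlapped. The 9 mature oligodendrocyte markers used, Mbp among them, were all higher without overlap in hindbrain-marker libraries than in either other class. Their summed level was 13881 to 17264 CPM there, against 2020 to 4209 CPM with cortex markers and 1380 to 2792 CPM with olfactory markers. The 9 astrocyte markers summed to 7439 to 9291 CPM with hindbrain markers, 5902 to 6351 CPM with cortex markers and 3865 to 4997 CPM with olfactory markers. Of these 9, 6 were higher and 2 lower without overlap than with cortex markers, where 29.8% and 29.3% of all genes were. Against olfactory markers 5 were higher and 1 lower, where 24.8% and 25.7% of all genes were. The 9 neuron markers summed to 6285 to 7070, 8960 to 11447 and 6593 to 7860 CPM in the hindbrain-marker, cortex-marker and olfactory-marker libraries. The 9 markers of endothelium and pericytes summed to 167 to 175, 133 to 171 and 127 to 191 CPM in that order, with 6 higher and 0 lower without overlap with hindbrain than with cortex markers. The 6 markers of fibroblasts and meninges summed to 42.5 to 122, 22.6 to 31.7 and 29.5 to 80.3 CPM. The 10 markers of border macrophages, the macrophages of meninges and vessels, summed to 33.3 to 55.7, 31.5 to 39.0 and 34.1 to 57.6 CPM in the same order of classes. The 10 monocyte and neutrophil markers summed to 1.86 to 36.8, 0.929 to 2.47 and 2.27 to 17 CPM. No marker of these lists was at 0 in all 15 libraries, and their part in the class differences was not tested.

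**Figure D2:**
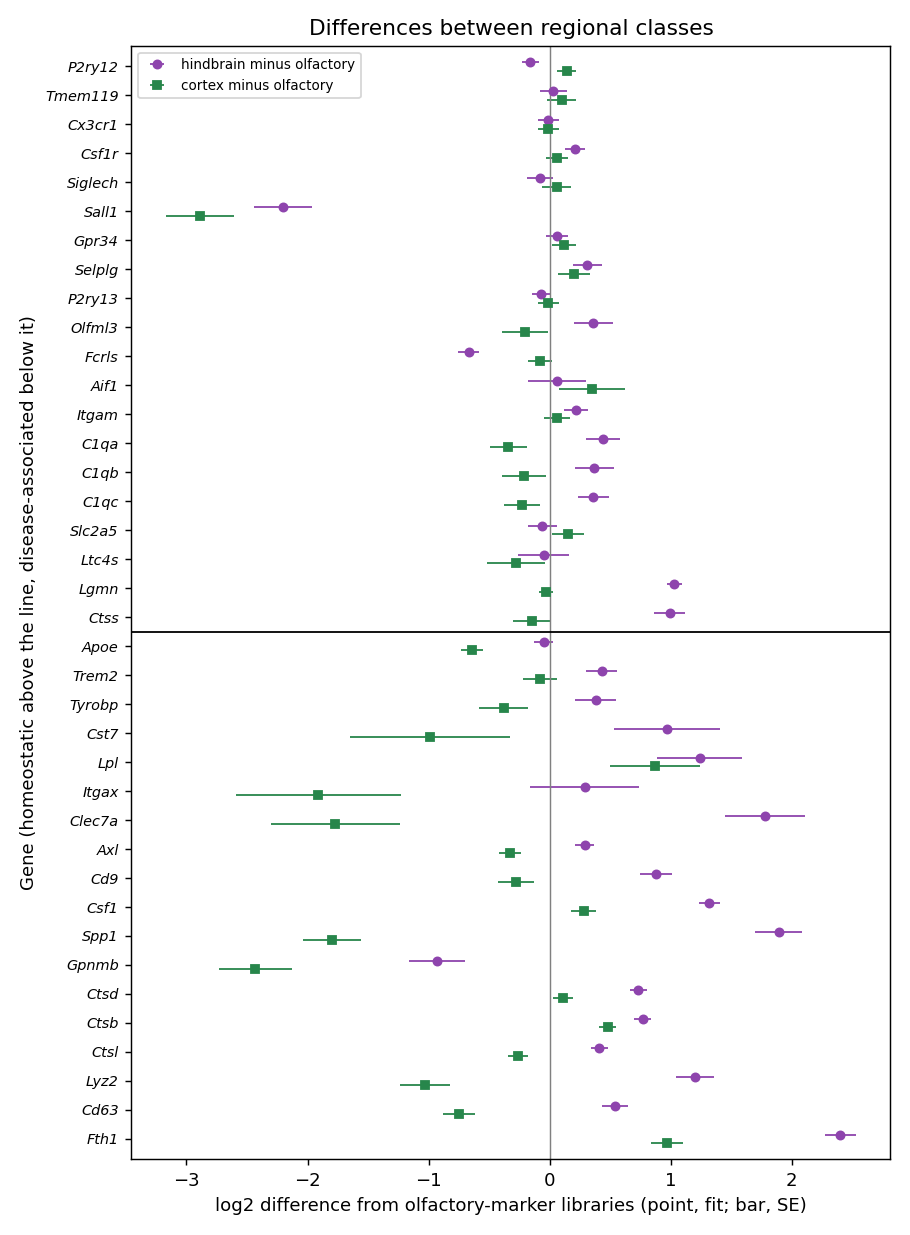
Fitted log2 difference from the olfactory-marker libraries (horizontal axis) for each of the 38 genes (vertical axis), with circles for hindbrain-marker and squares for cortex-marker libraries and bars for the SE. Spp1 and Clec7a lie at 1.89 and 1.78 for hindbrain-marker libraries and at -1.80 and -1.77 for cortex-marker libraries, and Sall1 lies far to the left in both.

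Among the homeostatic receptors, Cx3cr1, the receptor for the neuronal chemokine fractalkine, was the most even. It lay at 77.8 and 60.2 CPM in TG and at 61.2 and 71.5 CPM in WT hindbrain-marker libraries. With cortex markers it lay at 63.8 CPM in TG male 4 and at 75.1 and 62.5 CPM in WT. With olfactory markers it ran from 63.9 to 74.2 CPM with a median of 66.1 CPM, so all 3 classes overlapped. The log2 difference was -0.01 ± 0.09 (SE) both for hindbrain-marker and for cortex-marker libraries over olfactory-marker ones.

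P2ry12, the ADP receptor that steers microglial processes, is encoded at chr3:59216271-59262985 (GRCm38). It lay at 36.3 and 32.0 CPM in TG and at 37.3 and 44.0 CPM in WT hindbrain-marker libraries, against 45.1 CPM in TG and 54.4 and 45.5 CPM in WT cortex-marker libraries. The hindbrain-marker libraries were thus all below the cortex-marker ones, by a log2 difference of -0.30 ± 0.09, while both overlapped the olfactory range of 35.9 to 46.3 CPM. Tmem119, a surface protein used to tell microglia from other macrophages, lay at 23.5 to 32.5 CPM with hindbrain markers, 25.6 to 35.9 CPM with cortex markers and 24.6 to 30.8 CPM with olfactory markers. Csf1r, the receptor for the survival factors CSF1 and IL-34, lay at 72.1 to 86.7 CPM, 63.2 to 73.7 CPM and 59.7 to 81.5 CPM in these classes. The receptors P2ry13, Gpr34, Siglech and Itgam and the selectin ligand Selplg overlapped between every pair of these classes.

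Sall1 and Fcrls differed from the rest of the homeostatic list. Sall1, a transcription factor that maintains microglial identity and is also needed for olfactory bulb development, lay at 65.9 and 59.0 CPM in TG and at 72.8 and 82.8 CPM in WT hindbrain-marker libraries. It lay at 34.9 CPM in TG and at 50.9 and 42.4 CPM in WT cortex-marker libraries, against 160 to 411 CPM with a median of 334 CPM in olfactory-marker libraries. The 3 classes did not overlap, and the olfactory-marker libraries were highest, with log2 differences of -2.20 ± 0.24 for hindbrain-marker and -2.89 ± 0.28 for cortex-marker libraries over them. Fcrls, a microglial Fc receptor-like protein, lay at 13.7 and 10.8 CPM in TG and at 8.19 and 8.92 CPM in WT hindbrain-marker libraries. The olfactory-marker libraries had 14 to 17.1 CPM with a median of 16.4 CPM, all above the hindbrain-marker ones, for a log2 difference of -0.67 ± 0.09.

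The C1q chains tag synapses and debris for removal. C1qa lay at 74.7 and 60.7 CPM in TG and at 66.1 and 68.8 CPM in WT hindbrain-marker libraries, against 32.7 CPM in TG and 42.4 and 34.2 CPM in WT cortex-marker libraries. Olfactory-marker libraries ran from 40.5 to 71.7 CPM with a median of 41.5 CPM, and TG female 2 at the top of that range was the one that overlapped with hindbrain-marker libraries. The log2 difference was 0.78 ± 0.17 for hindbrain-marker over cortex-marker libraries and 0.44 ± 0.14 for hindbrain-marker over olfactory-marker libraries. C1qc showed the same order, with means of 60.7 ± 4.24 CPM with hindbrain markers (SD, n = 4), 37.9 ± 5.77 CPM with cortex markers (SD, n = 3) and 45.7 ± 9.52 CPM with olfactory markers (SD, n = 7).

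Legumain (Lgmn) and cathepsin S (Ctss), proteases of the lysosome, were the 2 homeostatic genes higher without overlap with hindbrain markers than in both other classes. Lgmn lay at 70.5 and 68.9 CPM in TG and at 71.2 and 70.8 CPM in WT hindbrain-marker libraries. It lay at 33.7 CPM in TG and at 33.2 and 32.5 CPM in WT cortex-marker libraries, against 30.8 to 38.9 CPM with a median of 34.0 CPM in olfactory-marker libraries. The cortex-marker and olfactory-marker values overlapped, and the hindbrain-marker libraries stood 2.09-fold and 2.04-fold above them, with log2 differences of 1.06 ± 0.07 and 1.03 ± 0.06. Ctss lay at 31.8 and 29.0 CPM in TG and at 30.3 and 37.2 CPM in WT hindbrain-marker libraries. Its cortex-marker values were 13.6 CPM in TG and 15.3 and 13.1 CPM in WT, and its olfactory-marker values ran from 13.8 to 22.6 CPM with a median of 14.7 CPM.

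Among disease-associated genes, the TREM2-TYROBP complex itself differed less than Spp1 or Clec7a. Trem2, the lipid-sensing receptor, lay at 13.2 and 11.2 CPM in TG and at 11.6 and 11.9 CPM in WT hindbrain-marker libraries. It lay at 8.37 CPM in TG and at 9.82 and 6.72 CPM in WT cortex-marker libraries, against 7.21 to 11.3 CPM with a median of 8.78 CPM with olfactory markers. The hindbrain-marker libraries were above all cortex-marker ones and just met the olfactory range, for log2 differences of 0.50 ± 0.16 and 0.43 ± 0.13. Tyrobp, its signalling adaptor, averaged 3.51 ± 0.508, 1.98 ± 0.549 and 2.59 ± 0.416 CPM in the hindbrain-marker, cortex-marker and olfactory-marker libraries (SD, n = 4, 3 and 7). Apoe, a main gene of the disease-associated programme, was lower in cortex-marker libraries, at 984 to 1153 CPM, than in hindbrain-marker libraries at 1508 to 1742 CPM and olfactory-marker libraries at 1521 to 1900 CPM.

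Spp1, which encodes the secreted phosphoprotein osteopontin and is also expressed by some neurons, was the member that differed most between hindbrain-marker and cortex-marker libraries. It is encoded at chr5:104435111-104441053 (GRCm38). Its level was 119 and 135 CPM in TG and 139 and 159 CPM in WT hindbrain-marker libraries. Cortex-marker libraries had 9.23 CPM in TG and 11.5 and 9.95 CPM in WT, and olfactory-marker libraries 18.2 to 44.2 CPM with a median of 38.6 CPM. The 3 classes did not overlap, and the hindbrain-marker libraries lay 12.9-fold above the cortex-marker ones (log2 difference 3.68 ± 0.27) and 3.70-fold above the olfactory-marker ones (1.89 ± 0.19).

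Clec7a, the β-glucan receptor dectin-1, is a receptor marker of the disease-associated state, encoded at chr6:129461591-129472785 (GRCm38). It lay at 6.97 and 3.58 CPM in TG and at 3.89 and 5.75 CPM in WT hindbrain-marker libraries. Cortex-marker libraries had 0.229 CPM in TG and 0.556 and 0.273 CPM in WT, and olfactory-marker libraries 0.656 to 3.35 CPM with a median of 1.33 CPM. Here too no 2 classes overlapped, and the log2 difference was 3.55 ± 0.53 for hindbrain-marker over cortex-marker libraries and 1.78 ± 0.33 over olfactory-marker libraries. Itgax, the integrin CD11c, lay at 2.32 and 1.36 CPM in TG and at 1.11 and 2.08 CPM in WT hindbrain-marker libraries, against 0.344 CPM in TG and 0.309 and 0.164 CPM in WT cortex-marker libraries. Its olfactory-marker range, 0.358 to 4.67 CPM with a median of 0.875 CPM, took in the whole hindbrain-marker range, with TG female 2 at 4.67 CPM. The cortex-marker values of both genes rest on few reads. In TG male 4, WT male 4 and WT female 2, Clec7a had 4, 9 and 5 reads and Itgax 6, 5 and 3.

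Cst7, the protease inhibitor cystatin F, was counted by only 1 to 24 reads per library. It lay at 0.904 and 1.02 CPM in TG and at 0.491 and 0.667 CPM in WT hindbrain-marker libraries, against 0.115 CPM in TG and 0.247 and 0.109 CPM in WT cortex-marker libraries. Olfactory-marker libraries ran from 0.0604 to 1.07 CPM with a median of 0.275 CPM, and overlapped both. The log2 difference was 1.96 ± 0.67 for hindbrain-marker over cortex-marker libraries.

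Gpnmb, a transmembrane glycoprotein of lipid-laden phagocytes, had another order. It lay at 5.23 and 4.54 CPM in TG and at 5.69 and 5.08 CPM in WT hindbrain-marker libraries, and at 1.95 CPM in TG and 1.67 and 1.59 CPM in WT cortex-marker libraries. Olfactory-marker libraries had 4.23 to 13.2 CPM with a median of 10.8 CPM, and 6 of these 7 exceeded every hindbrain-marker library. The log2 difference was 1.50 ± 0.32 for hindbrain-marker over cortex-marker libraries and -0.93 ± 0.23 for hindbrain-marker over olfactory-marker libraries.

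Lyz2, the macrophage lysozyme, shares reads with its near copy Lyz1 to an extent these counts do not show. It lay at 41.8 and 31.3 CPM in TG and at 42.9 and 30.3 CPM in WT hindbrain-marker libraries, against 7.11 CPM in TG and 9.82 and 6.12 CPM in WT cortex-marker libraries. With olfactory markers it ran from 12.4 to 20.6 CPM with a median of 15 CPM, so the 3 classes were apart, with log2 differences of 2.23 ± 0.23 for hindbrain-marker over cortex-marker and 1.20 ± 0.16 for hindbrain-marker over olfactory-marker libraries. Ctsd, Ctsb and Ctsl, the lysosomal cathepsins, had log2 differences of 0.73 ± 0.07, 0.77 ± 0.07 and 0.41 ± 0.07 for hindbrain-marker over olfactory-marker libraries. Cd63, a lysosomal membrane protein, had 0.54 ± 0.11, and Cd9, a surface tetraspanin, 0.88 ± 0.13. Csf1, the ligand of Csf1r, had 1.32 ± 0.09. Fth1 had 2.40 ± 0.13, the largest of the set in that comparison, at 2719 to 3653 CPM with hindbrain markers, 1134 to 1323 CPM with cortex markers and 477 to 894 CPM with olfactory markers. Processed copies of Fth1 in the genome make its count uncertain.

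**Figure D3:**
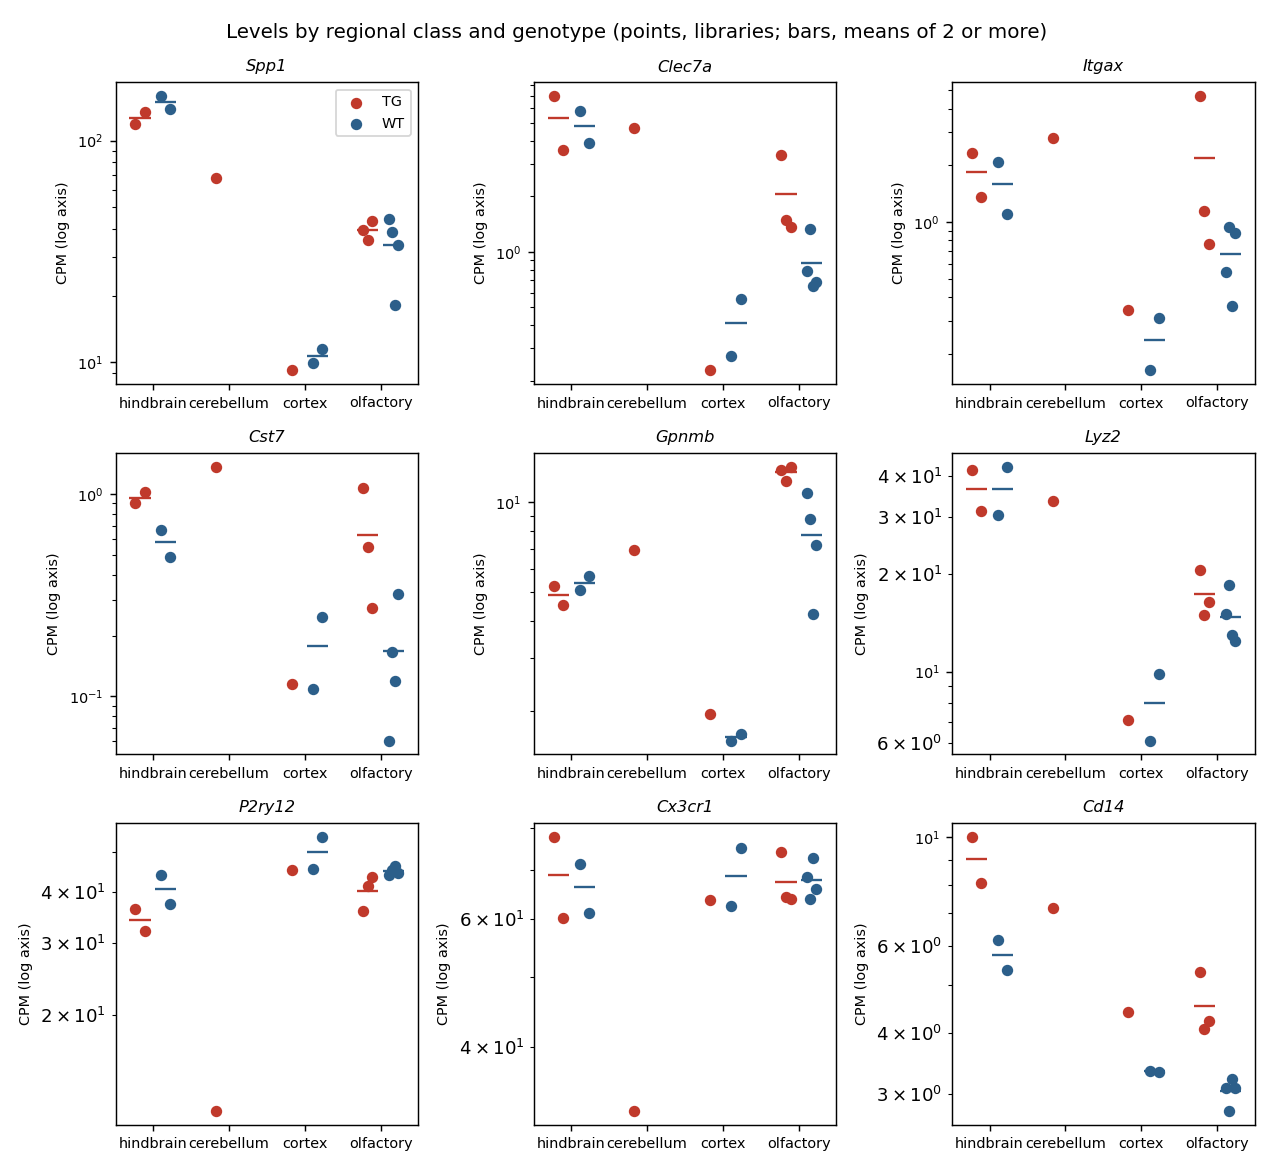
CPM on a log axis (vertical) for 8 members and Cd14 by regional class (horizontal), TG libraries in red left of WT libraries in blue, with short bars for means of 2 or more libraries. Spp1, Clec7a and Lyz2 separate the hindbrain-marker, cortex-marker and olfactory-marker libraries, Cx3cr1 does not, and Cd14 is higher in each TG library than in the WT libraries of its class, where there are any.

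RefSeq start sites on GRCm38.p6 were matched for 30 of the 38 genes, and the 250 bases before the start were searched on both strands for letters bound by PU.1, the lineage factor of macrophages. The searched letters were GAGGAAGT, together with both shorter forms that lie within it and overlap each other. The form GAGGAA was found before 13 of 30 members (43.3%), against 23.1% of 27025 genes, and the form AGGAAGT before 8 (26.7%), against 7.80%. Either of them stood before 17 members (56.7%), against 27.2% of all genes, in 8 of 15 disease-associated and 9 of 15 homeostatic promoters. The full GAGGAAGT stood before Spp1 and C1qc only (6.67%, against 2.44% of all genes). TCACGTGA, the letters of the lysosomal gene network, stood before Ctsd and Siglech (6.67%, against 0.803%), and TCACATGA, bound by MITF and its relatives, before 0 members, against 0.836%. The matches are given as letters in a window and not as bound sites. The 4 sequences below are examples with a match, from 3 disease-associated genes that were higher with hindbrain than with cortex markers and from P2ry12, which was lower. They run 5′ to 3′ in the direction of the gene, end at the base before the RefSeq start site used, and carry the matches in capitals. For Clec7a that start site lies a few bases inside the gene span given above. They lie at chr5:104434861-104435110 on the plus strand for Spp1, chr6:129472780-129473029 on the minus strand for Clec7a, chr2:150570165-150570414 on the plus strand for Cst7 and chr3:59262986-59263235 on the minus strand for P2ry12.
Spp1: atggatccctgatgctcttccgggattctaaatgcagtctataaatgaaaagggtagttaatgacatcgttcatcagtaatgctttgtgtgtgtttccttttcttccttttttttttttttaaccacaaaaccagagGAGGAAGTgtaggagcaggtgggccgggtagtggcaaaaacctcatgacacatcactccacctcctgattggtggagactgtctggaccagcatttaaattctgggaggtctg
Clec7a: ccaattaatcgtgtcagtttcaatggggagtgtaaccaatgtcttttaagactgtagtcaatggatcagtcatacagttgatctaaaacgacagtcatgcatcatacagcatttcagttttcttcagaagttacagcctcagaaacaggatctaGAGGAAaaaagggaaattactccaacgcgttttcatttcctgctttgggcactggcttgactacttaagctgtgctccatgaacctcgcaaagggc
Cst7: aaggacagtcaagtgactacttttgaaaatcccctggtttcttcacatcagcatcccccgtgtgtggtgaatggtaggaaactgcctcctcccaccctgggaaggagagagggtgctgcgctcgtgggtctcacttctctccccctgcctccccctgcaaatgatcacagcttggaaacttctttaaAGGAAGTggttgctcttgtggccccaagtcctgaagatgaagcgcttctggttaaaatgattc
P2ry12: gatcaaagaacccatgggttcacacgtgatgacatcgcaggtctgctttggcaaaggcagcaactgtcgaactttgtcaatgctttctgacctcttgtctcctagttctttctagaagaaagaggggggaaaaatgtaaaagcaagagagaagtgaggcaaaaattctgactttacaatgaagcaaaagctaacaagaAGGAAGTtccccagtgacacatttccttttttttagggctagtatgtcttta
The match in Spp1 is the full GAGGAAGT and begins 113 bases before the start. Those in Cst7 and P2ry12 are AGGAAGT, 63 and 52 bases before it, and that in Clec7a is GAGGAA, 96 bases before it. The homeostatic gene P2ry12 and the disease-associated gene Cst7 thus hold the same 7 letters.

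TG female 3, the cerebellum-marker library, was lowest of all 15 for 13 of 20 homeostatic genes and for 0 of 18 disease-associated genes, where 15.7% of all genes were lowest in it. P2ry12 lay at 11.6 CPM there, against 32.0 to 54.4 CPM in the other 14 libraries, and Cx3cr1 at 32.7 CPM, against 60.2 to 77.8 CPM. Sall1 lay at 17.6 CPM and Slc2a5 at 1.13 CPM. Several disease-associated genes stood higher in it than in every cortex-marker library. Spp1 lay at 68.1 CPM, Clec7a at 4.66 CPM, Itgax at 2.81 CPM and Cst7 at 1.37 CPM, the highest Cst7 level of the series. Lpl, at 4.90 CPM, was below every cortex-marker library. Some homeostatic genes were also above every cortex-marker library: C1qa at 56.3, C1qb at 7.04, C1qc at 45.8, Lgmn at 40.8, Ctss at 21.0 and Ltc4s at 2.21 CPM. The share of all genes above them was not computed. The 5 choroid plexus markers summed to 826 CPM in this library and to at most 35.2 CPM in the others, and the part of that tissue in these levels was not tested. With no WT library of this class, its values cannot be set against WT of the same kind.

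The genotype comparison asks whether the microglial genes differ between TG and WT brains. No member passed an adjusted p of 0.05 in any of the 5 genotype comparisons. With a term for library class, 0 of 38 members passed the edgeR quasi-likelihood test, Benjamini-Hochberg adjusted over all genes, where 0.496% of genes tested passed. At an unadjusted p under 0.05 there were 5 members (Fcrls, P2ry12, Cst7, Fth1 and Itgax), where 8.40% of all genes had such a p. That count was 3 without TG female 2, TG male 1, TG male 4, WT male 1 or WT female 2, each left out alone, and 8 without WT male 3. Without the class term 0 members passed, where 0.111% of genes passed, and 1 member (Cst7) had an unadjusted p under 0.05, where 1.83% of genes did. With 1 library left out this count ran from 0 to 3, and it was 3 without WT male 3. Across DESeq2, limma-voom and every other setting tried, the count of passing members stayed 0. The median log2 difference over the 38 with the class term was 0.03, beside 0.00 for all genes tested, and the median SE of a member was 0.11.

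Fcrls had the smallest adjusted p with the class term, with a log2 difference of 0.30 ± 0.08 and a Benjamini-Hochberg adjusted p of 0.180 (edgeR, quasi-likelihood). It was at 13.7 and 10.8 CPM in TG and at 8.19 and 8.92 CPM in WT with hindbrain markers, and at 16.7 CPM in TG and at 13.3 and 13.5 CPM in WT with cortex markers. With olfactory markers it was at 16.4, 16.8 and 16.7 CPM in TG and at 14, 14.2, 14.7 and 17.1 CPM in WT, where 1 WT library lay above all TG ones. P2ry12 had a difference of -0.19 ± 0.06 in the same fit. In olfactory-marker libraries it was at 35.9, 41.2 and 43.4 CPM in TG and at 46.3, 44.4, 44.0 and 45.1 CPM in WT, and every TG library was below every WT library. In cortex-marker libraries its TG value of 45.1 CPM was also below the WT values of 54.4 and 45.5 CPM. With hindbrain markers it was at 36.3 and 32.0 CPM in TG and at 37.3 and 44.0 CPM in WT.

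Within the 7 olfactory-marker libraries, 3 TG against 4 WT, 2 members were higher in TG without overlap and 1 was lower, where 3.83% of genes were higher and 2.95% lower. These were Clec7a and Gpnmb on the higher side and P2ry12 on the lower. By adjusted p 0 members passed, where 0.245% of genes did, and 4 had an unadjusted p under 0.05, where 7.75% of genes did. The 4 became 2 without TG female 2, and 8 when these 7 libraries were fitted alone. Clec7a was at 3.35, 1.48 and 1.37 CPM in TG and at 0.656, 0.691, 0.785 and 1.33 CPM in WT, for a log2 difference of 1.32 ± 0.35. Gpnmb was at 12.9, 11.8 and 13.2 CPM in TG and at 4.23, 7.23, 10.8 and 8.81 CPM in WT, for 0.77 ± 0.22. Both had all TG libraries above all WT libraries, with 1 WT library close below the lowest TG one.

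Itgax was at 4.67, 1.15 and 0.769 CPM in TG and at 0.358, 0.875, 0.544 and 0.942 CPM in WT, for 1.61 ± 0.49. Cst7 was at 1.07, 0.549 and 0.275 CPM in TG and at 0.119, 0.322, 0.0604 and 0.166 CPM in WT, for 1.82 ± 0.56. For both genes 2 of 3 TG libraries were above all WT libraries. The Benjamini-Hochberg adjusted p (edgeR, quasi-likelihood) was 0.303 for Clec7a, 0.351 for Gpnmb, 0.422 for Itgax and 0.430 for Cst7.

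The size of these differences depended on TG female 2. It was the highest of the 7 olfactory-marker libraries for 13 of 20 homeostatic and 10 of 18 disease-associated genes, where 9.92% of all genes were highest in it. Csf1r lay at 81.5 CPM and C1qa at 71.7 CPM there, against at most 68.8 and 50.0 CPM in the other 6. Without this library the olfactory difference was 0.67 for Itgax, 1.08 for Cst7, 0.94 for Clec7a and 0.90 for Gpnmb, so that Gpnmb was the one that did not shrink. Markers of border macrophages summed to 51.2 CPM in it, within the 34.1 to 57.6 CPM of its class, and lymphocyte markers to 8.62 CPM, the top of the class range of 1.04 to 8.62 CPM. The count of members lower in TG without overlap was 4 without TG female 2, 2 without WT male 1 and 2 without WT female 4. The count higher was 5 without TG male 3. Such counts can rise for any genes when a library is left out, and the shares of all genes were not computed for these smaller sets.

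**Figure D4:**
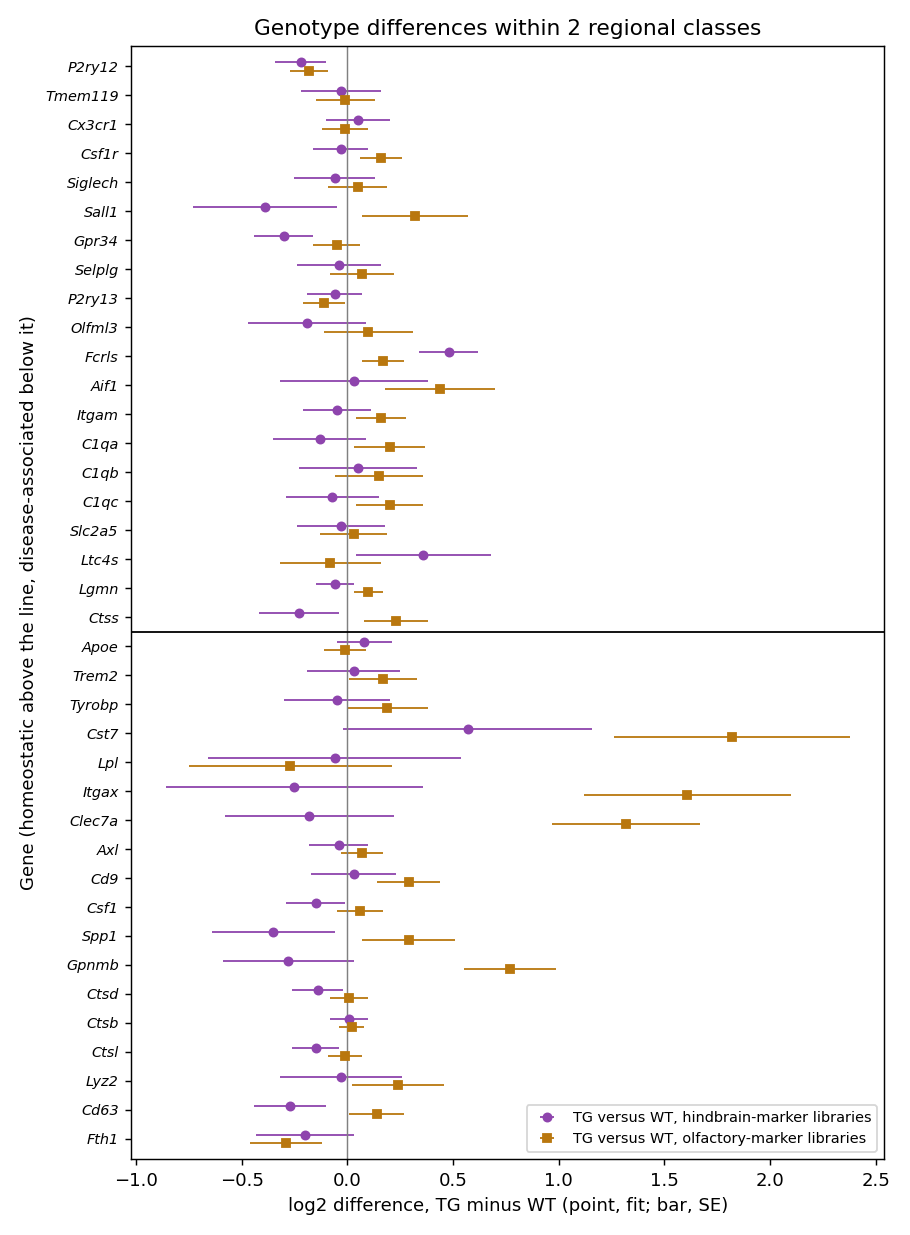
Fitted log2 difference, TG minus WT (horizontal axis), for each of the 38 genes (vertical axis), with circles for hindbrain-marker and squares for olfactory-marker libraries and bars for the SE. Cst7, Itgax, Clec7a and Gpnmb lie between 0.77 and 1.82 in olfactory-marker libraries, most genes of both lists lie near 0, and no gene passed the adjusted threshold in either class.

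Within the hindbrain-marker libraries, 2 TG against 2 WT, both TG libraries were female and the WT libraries were 1 male and 1 female. Without overlap, 5 members were higher and 7 lower in TG, where 18.7% of genes were higher and 20.0% lower. By adjusted p 0 passed, where 0.0700% of genes did, and Fcrls alone had an unadjusted p under 0.05, where 5.81% of genes did, with a difference of 0.48 ± 0.14. This count ran from 1 to 3 with 1 library left out, with 3 without WT male 3. Spp1 was at 119 and 135 CPM in TG and at 139 and 159 CPM in WT, for -0.35 ± 0.29. Clec7a, at 6.97 and 3.58 CPM in TG and at 3.89 and 5.75 CPM in WT, had a difference of -0.18 ± 0.40, and Itgax one of -0.25 ± 0.61. The TG range of Clec7a took in both WT values, and the sign of these differences turned with the fit: with no sex covariate Clec7a had 0.12 and Itgax 0.18.

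The difference between the genotype effects of these classes, hindbrain-marker minus olfactory-marker, was tested as an interaction. By adjusted p 0 members passed, where 0.0117% of genes did, and 3 had an unadjusted p under 0.05, where 5.46% of genes did. The 3 became 1 without TG female 2, without TG female 4 or with no sex covariate, and 6 without TG female 1. These 3 were Clec7a at -1.49 ± 0.54, Gpnmb at -1.06 ± 0.39 and Itgax at -1.86 ± 0.78. Their Benjamini-Hochberg adjusted p was 0.851 each (edgeR, quasi-likelihood). A difference of the genotype effect between classes was thus not shown for any member. In cortex-marker libraries, with 1 TG, Clec7a was at 0.229 CPM in TG and at 0.556 and 0.273 CPM in WT, and Itgax at 0.344 CPM in TG and at 0.309 and 0.164 CPM in WT. Gpnmb was at 1.95 CPM in TG and at 1.67 and 1.59 CPM in WT.

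Of the other genes of these cells, 41 further microglial and myeloid genes and 29 further activation genes passed the filter. With hindbrain markers 20 of the 41 were higher and 6 lower than with cortex markers without overlap, and 22 of the 29 were higher and 1 lower, where 29.8% of all genes were higher and 29.3% lower. Compared with olfactory markers, 10 of the 41 were higher and 3 lower, and 9 of the 29 were higher and 1 lower, where 24.8% of all genes were higher and 25.7% lower. Summed over all members in the table, those that did not pass included, the further microglial and myeloid list was lower with hindbrain than with cortex markers and overlapped with olfactory markers. It came to 960 to 1063 CPM there, 1549 to 1855 CPM with cortex markers and 1056 to 1317 CPM with olfactory markers. The activation list summed to 1871 to 2040, 1206 to 1265 and 1259 to 1538 CPM in that order. Such sums follow the most abundant genes of a list, whatever cells make them, and those genes were not separated here. Gene by gene, the median log2 difference for hindbrain-marker over cortex-marker libraries was 0.32 over the 41 and 0.98 over the 29. For all genes tested it was 0.01. Cx3cl1 and Il34, the neuronal ligands of Cx3cr1 and Csf1r, were lower with hindbrain markers. They were picked from a list of ligands and partners, of which 14 genes passed the filter. Of those 14, 7 were higher and 4 lower without overlap with hindbrain than with cortex markers, where 29.8% and 29.3% of all genes were. Cx3cl1 lay at 355 and 343 CPM in TG and at 295 and 321 CPM in WT hindbrain-marker libraries, against 1277 CPM in TG and 1135 and 1115 CPM in WT cortex-marker libraries. Its receptor Cx3cr1 was at like levels in both. Il34 lay at 29.5 and 22.8 CPM in TG and at 20.3 and 21.3 CPM in WT with hindbrain markers, against 62.0 CPM in TG and 70.6 and 55.0 CPM in WT with cortex markers, while its receptor's other ligand Csf1 was 2.05-fold higher with hindbrain markers.

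By genotype with the class term, 1 of the 41 further microglial genes rose in TG and 0 fell, and 0 of the 29 activation genes passed, where 0.496% of all genes did. The gene that rose was Cd14, the co-receptor for bacterial lipopolysaccharide on myeloid cells, on chromosome 18. It lay at 10 and 8.06 CPM in TG and at 5.36 and 6.17 CPM in WT with hindbrain markers, and at 4.42 CPM in TG and at 3.33 and 3.33 CPM in WT with cortex markers. With olfactory markers it lay at 5.33, 4.06 and 4.23 CPM in TG and at 3.22, 3.09, 3.08 and 2.77 CPM in WT. TG female 3, with cerebellum markers, had 7.16 CPM. In the other 3 classes every TG library was above every WT library of its class, with a log2 difference of 0.57 ± 0.09 and a Benjamini-Hochberg adjusted p of 0.0132 (edgeR, quasi-likelihood). That p was 0.0569 for Cd14 without WT male 3, at a log2 difference of 0.55, and 0.267 without the hindbrain-marker and cerebellum-marker libraries, at 0.54. In DESeq2 it was 8.06e-04, at 0.57. Cd14 did not pass without the class term, at 0.62 ± 0.23. Nor did it pass within olfactory-marker libraries, at 0.59 ± 0.14, or within hindbrain-marker libraries, at 0.59 ± 0.18. Within these classes its Benjamini-Hochberg adjusted p was 0.225 and 0.647 (edgeR, quasi-likelihood). Among genes that did not pass with the class term, Cybb, the phagocyte oxidase, had a log2 difference of 0.75 ± 0.26. Cd74, the class II invariant chain, had 0.72 ± 0.27, and Ccr2, the monocyte chemokine receptor, had 0.88 ± 0.27. Their Benjamini-Hochberg adjusted p was 0.400, 0.497 and 0.338 (edgeR, quasi-likelihood). They were picked for the smallest p of their lists. The median log2 difference was 0.03 over the 29 activation genes and 0.21 over the 5 monocyte and neutrophil genes tested.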

How the data were processed

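Bulk brain RNA of 15 mouse libraries was sequenced as 100 bp paired-end reads from 250 ng of total RNA, per the labels' protocols and the series' design text. The labels give the molecule as polyA RNA, while the library kit they name removes ribosomal RNA from total RNA, so which RNA the counts cover is not settled. The values are gene counts as the authors deposited them, 1 column per library. STAR 2.7.5b, Subread featureCounts and the build GRCm38 are named in the submitters' processing notes, and the strand setting is not given in the sources used here. Total counts per library ran from 15170772 to 35850998, and no column was left unused.

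Gene IDs were given symbols and positions from RefSeq GRCm38.p6, and exon lengths from GENCODE M21 on GRCm38. Counts were normalized by TMM in edgeR 4.0.16 (R 4.3.3), and CPM values use these factors. Genes were kept where filterByExpr passed them, given 4 groups of genotype and sex, leaving 17151. Genotype was tested by the robust quasi-likelihood test of edgeR, Benjamini-Hochberg adjusted over all genes tested, at an adjusted p of 0.05, and ± after a log2 difference is its SE. The fits were additive in library class, sex and genotype, the same without class, and class-by-genotype means with sex. Library class was set from 4 genes, in this order: Hoxa5 above 10 CPM (hindbrain), Gabra6 above 10 CPM (cerebellum), Omp above 10 CPM (olfactory) and Neurod6 above 100 CPM (cortex). The cerebellum class holds 1 library, which adds nothing to the genotype effect in the fits with class. Class differences carry no p-value, since the classes come from the same counts, and were called where the libraries of 2 classes did not overlap.

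The members, the other gene lists, the classes and the tests were chosen with earlier results of these data known. The members described in full were those past the threshold in any genotype fit, the 6 of each list with the largest absolute hindbrain-marker minus cortex-marker difference, and P2ry12, Tmem119, Cx3cr1, Csf1r, C1qa, Trem2, Tyrobp, Cst7, Itgax and Clec7a. From other lists, genes past the threshold or up to 2 per list with the smallest p were open to naming. Cx3cl1 and Il34 levels by class, and single members named for a count, were chosen after their values were seen. Alternatives were DESeq2 1.42.0, limma-voom (limma 3.58.1), other size factors, other filters, a non-robust fit, no sex covariate, the replicate number as a block, subsets of libraries, and fits that each left out 1 library. 1 oligodendrocyte marker is not reported here and is left out of its list. The test scripts were checked on simulated counts. No 2 libraries agreed within counting noise. Floors of 3 counts cover counting error only, while SE and SD values reflect the spread between libraries.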

Additional observations from a re-analysis of the deposited data

Results flagged for a closer look

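Each of the 38 genes was examined for a library standing apart, in the 7 olfactory-marker libraries, the 4 hindbrain-marker libraries and the 4 WT olfactory-marker libraries, which makes 114 tests. In 14 of them the gap between the highest or lowest library and its neighbour was larger, as a share of the whole range, than Dixon's 95% value. Chance flags about 1 in 20 such groups, and genes of 1 cell type in the same libraries are not independent.

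TG female 2 was the high library in 8 of the 14, all among the olfactory-marker libraries. Of the homeostatic genes, Csf1r lay at 81.5 CPM in it, with the next library at 68.8 CPM, and Selplg, a selectin ligand, at 16.6 CPM, with the next at 13.5 CPM. Aif1, the cytoplasmic protein IBA1, lay at 7.10 CPM, with the next at 4.23 CPM. C1qa lay at 71.7 CPM, with the next at 50.0 CPM, and C1qc at 66.5 CPM, with the next at 46.7 CPM. Ctss lay at 22.6 CPM, with the next at 16.2 CPM. Of the disease-associated genes, Itgax lay at 4.67 CPM, with the next at 1.15 CPM, and Clec7a at 3.35 CPM, with the next at 1.48 CPM.

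WT male 1 stood apart in 3 groups. Spp1 was low in it at 18.2 CPM among the olfactory-marker libraries, with the next at 34.0 CPM. Among the 4 WT olfactory-marker libraries it was low for Ctsl at 46.2 CPM, with the next at 55.2 CPM, and high for Fth1 at 894 CPM, with the next at 633 CPM. WT female 1 was low for Slc2a5, a sugar transporter, at 3.02 CPM among the olfactory-marker libraries, with the next at 4.05 CPM. In the hindbrain-marker libraries WT male 3 was high for Ctsl at 79.0 CPM, with the next at 68.3 CPM, and TG female 4 was low for Cd63 at 71.4 CPM, with the next at 88.3 CPM.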

How the results depend on the processing

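Of 1881 values under 27 settings, 1825 were rated unchanged. For a genotype difference this meant the same direction and side of the threshold, and for a class difference a move smaller than the spread. For a count it meant staying within a set ratio of the main count. The counts of members passing the adjusted threshold were 0 in every setting that gave them. The median member difference stayed between 0.27 and 0.48 for hindbrain-marker over olfactory-marker libraries, between 0.47 and 0.67 for hindbrain-marker over cortex-marker libraries, and between -0.22 and -0.03 for cortex-marker over olfactory-marker libraries. With each library left out in turn, the count of members higher without overlap ran from 12 to 19 and lower from 2 to 3 for hindbrain-marker over olfactory-marker libraries. For cortex-marker over olfactory-marker libraries it ran from 2 to 3 higher and 9 to 15 lower. For TG over WT in olfactory-marker libraries it ran from 2 to 5 higher and 1 to 4 lower. Leaving out a library can do little but keep or raise such a count, so these runs cannot show a call weakening. These no-overlap alternatives were chosen after seeing the data.

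Directions turned only among TG-over-WT differences in hindbrain-marker libraries. Itgax had 0.18 with no sex covariate and with the 4 hindbrain-marker libraries alone, and ran from -0.66 to 0.09 with 1 library left out, above 0 without TG female 2 (0.03) and without TG female 4 (0.09). Clec7a had 0.12 with no sex covariate and with these 4 libraries alone, and ran from -0.72 to 0.23 with 1 library left out, above 0 without TG female 4. P2ry12 ran from -0.37 to 0.01, above 0 without WT female 3. The causes were not tested.

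With the replicate number as a block, 0 members passed in every genotype comparison, and the interaction's 3 members with an unadjusted p under 0.05 became 0. Cst7 turned to -0.58 in hindbrain-marker libraries, and Cd14 had a difference of 0.57 with a Benjamini-Hochberg adjusted p of 0.0564 (edgeR, quasi-likelihood). The numbers pair nothing that the labels name: over 21 pairs of same-numbered libraries the correlation of deviations ran from -0.61 to 0.91, and 4 of 15 libraries correlated best with their own number. Depth limits the low genes most, Cst7 above all, and the hindbrain-marker comparison rests on 2 libraries a genotype.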

Other observations

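C3, the central complement protein made by reactive astrocytes and macrophages, lay at 46.5 and 20.2 CPM in TG and at 12.5 and 38.7 CPM in WT hindbrain-marker libraries. It lay at 0.115 CPM in TG and at 1.05 and 0.164 CPM in WT cortex-marker libraries, and at 0.0554 to 2.69 CPM in olfactory-marker libraries, where TG female 2 was highest. Gfap, an astrocyte filament protein raised in reactive astrocytes, lay at 2095 and 1029 CPM in TG and at 1180 and 2043 CPM in WT hindbrain-marker libraries, and at 66.4 CPM in TG and at 117 and 110 CPM in WT cortex-marker libraries. With olfactory markers Gfap ran from 159 to 331 CPM. Gfap is among the 9 astrocyte markers. Of these, 6 were higher and 2 lower without overlap with hindbrain than with cortex markers, where 29.8% and 29.3% of all genes were. C3 and Gfap were both chosen after their values were seen, and whether astrocytes were reactive was not tested. Mrc1, a mannose receptor of border macrophages, lay between 1.75 and 5.07 CPM over all 15 libraries, with no class apart from the others.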
